A study of Homo sapiens with 8 samples.

Results

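NEAT1, MALAT1 and H19 are long noncoding RNAs, and the m6A peaks listed on them in HepG2 cells were examined with and without METTL3 knockdown. A peak was assigned to an RNA when it overlapped its hg19 window by at least 1 base. Of the 30765 peaks in the 4 lists, 1 met this rule. It lay on the 5′ part of the NEAT1 window and was listed in siMettl3 replicate 2 alone. MALAT1 and H19 had 0 listed peaks in every sample.

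HepG2, a human liver cancer line, received control siRNA (siControl) or siRNA against METTL3 (siMettl3), the catalytic subunit of the m6A methyltransferase. The labels give neither the siRNA used nor the time to harvest. The methods describe a single METTL3 siRNA, the same transfection reagent as for control siRNA and harvest after 48 h, without tying this transfection to the sequenced samples. Each group had 2 replicates, and no source says whether these were separate cultures, so p-values measure only the spread between these samples. In m6A-seq, fragments of poly(A)-selected RNA are pulled down with an anti-m6A antibody, and places where the pulled-down RNA exceeds the background are called as peaks. The lists held between 6888 and 8577 peaks, with 1945803 to 2426342 tags (sequenced fragments) inside them. These sums are not library depth, which is unknown here. The lists carry no expression values and no gene names, so neither the loss of METTL3 mRNA nor the hepatocyte identity of the cells was checked in them. They carry no strand either.

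MALAT1 is an abundant nuclear RNA of splicing speckles. NEAT1 is the architectural RNA of paraspeckles, and it is made as a short polyadenylated transcript and a long one that share their 5′ end. MALAT1 and long NEAT1 are known to end in a triple helix rather than in an ordinary poly(A) tail. H19 is an imprinted RNA of fetal liver and of some liver cancers that hosts the microRNA miR-675. METTL3 works with METTL14 and adds m6A to adenosines in nuclear transcripts, noncoding ones included, and MALAT1 is a well-known carrier of the mark.

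All 3 RNAs are on chromosome 11. The NEAT1 window was chr11:65190269-65213011 on the plus strand and 22743 bases long, as long as the NEAT1 span in GRCh38.p14 (gene ID 283131, 2 RefSeq transcripts). The MALAT1 window was chr11:65265233-65273940 on the plus strand, with 8708 bases against a GRCh38.p14 span of 8779 (gene ID 378938). The gap between the NEAT1 and MALAT1 windows was 52221 bases. The H19 window was chr11:2016406-2019065 on the minus strand, with 2660 bases against a GRCh38.p14 span of 6091 that takes in longer transcripts (gene ID 283120). An antisense RNA of MALAT1, TALAM1, is annotated in GRCh38.p14, and a peak there could not have been told apart from one on MALAT1. In all 4 lists the peaks lay within the chromosome ends of hg19, and 12 or 13 chromosomes per list had a peak past their GRCh38 end, so the hg19 windows fit the lists' coordinates.

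The mature products of H19 stand here because they mark the best-known processed part of that RNA, on which no peak was listed. The sequences are those of RefSeq in GRCh38.p14, 5′ to 3′, with the seed (bases 2 to 8) in capitals.
hsa-miR-675-5p: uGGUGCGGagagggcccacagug
hsa-miR-675-3p: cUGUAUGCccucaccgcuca
The 23-base and 20-base RNAs do not share a seed. They are from the minus strand at chr11:1996800-1996822 and chr11:1996768-1996787 of GRCh38.p14, inside its H19 span.

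NEAT1 had 0 peaks in both siControl lists and in the first siMettl3 list, and 1 peak in the list of siMettl3 replicate 2. The peak was at chr11:65189880-65194040 (hg19) and 4161 bases long. It began 389 bases upstream of the annotated 5′ end and stopped at base 3772 of the RNA, so 90.7% of it lay in the window. Its summit, the position of highest signal, was at base 203 of NEAT1 (chr11:65190471), counted from the 5′ end. The peak covered 16.6% of the NEAT1 window and left 18971 bases without one. The uncovered part holds the annotated hairpin of miR-612, bases 21661 to 21760 along NEAT1 in GRCh38.p14, 17888 bases past the end of the peak. The covered part is the end that the short and the long transcript share, so the peak cannot be given to either of them. How much of the short transcript lies under the peak was not measured.

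The NEAT1 peak held 1578 tags, or 379 tags per kb. Its score, the peak caller's p-value on the Phred scale (higher is more significant), was 224.79, where the lists begin at 50. Its fold enrichment over background was 3.58 and its listed false discovery rate (FDR) 25.55%. These are values of a single library, with no replicate error. Within the 8577 peaks of its list it was long and rich in tags. Only 93 peaks, itself included, were at least as long (median 982 bases), and 60 held at least as many tags (median 139). Its score was reached by 1675 peaks (19.5% of the list, median 108.53). Its listed FDR was lower than that of most, with 81.4% of the peaks at or above 25.55% and a median of 54.35%. Its fold enrichment was on the low side, since 85.4% of the peaks reached it and the median was 4.85. Among the 60 peaks with at least as many tags, however, the median fold enrichment was 2.80 and 8 peaks exceeded 3.58. In this list tags and fold enrichment ran in opposite directions, with a Spearman rho of −0.352 across its 8577 peaks, which share 1 library and are not independent.

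**Figure D1:**
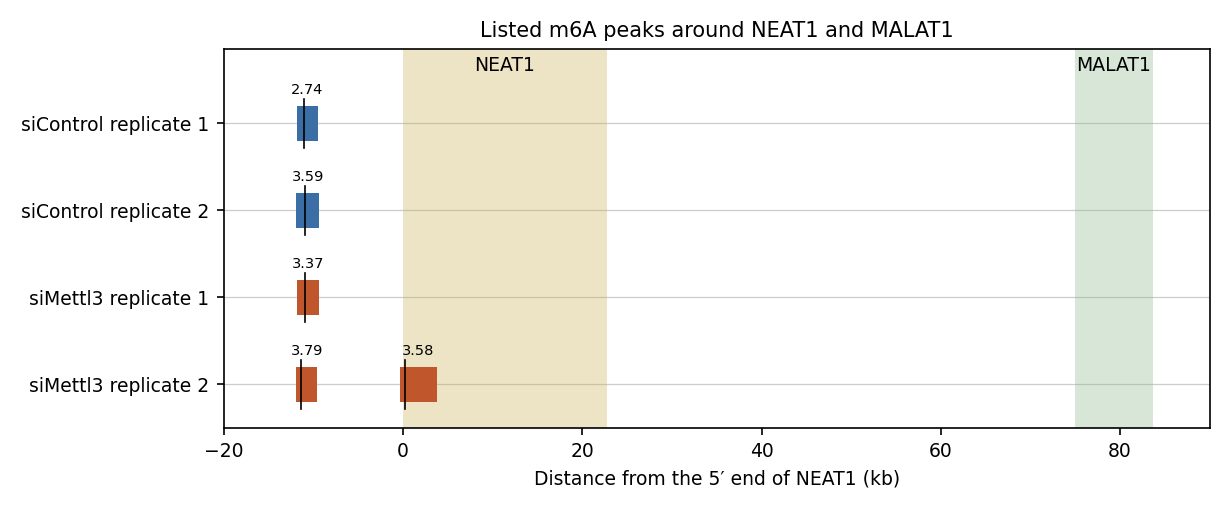
Listed m6A peaks around NEAT1 and MALAT1 in the 4 samples. The x axis is the distance from the 5′ end of NEAT1 in kb, boxes are peaks drawn to scale, black lines their summits and numbers their fold enrichment, with siControl in blue and siMettl3 in red. The only peak inside a window is the one of siMettl3 replicate 2 at the 5′ end of NEAT1 (fold enrichment 3.58), while the peak before NEAT1 is present in all 4 samples.

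Peaks with a score like that of NEAT1 were rarely private to a list, whereas peaks as long or as rich in tags were private more often. In siMettl3 replicate 2, 1399 regions had a peak in that sample alone, 11.4% of the 12221 regions obtained by merging overlapping peaks of the 4 lists, and the NEAT1 region is 1 of them. Most were weak, with a median score of 66.13 and a median of 66 tags. By score the NEAT1 peak was number 8 of the 1399, by tags number 4 and by length number 9. By tags per kb it was number 55, and by fold enrichment number 1157, below the median of 4.65. Of the 1675 peaks of the list with a score of at least 224.79, 1517 (90.6%) overlapped a peak in all 3 other lists and 8 (0.478%) in none. The other lists had 8, 5 and 12 such private peaks among 1593, 2086 and 1538 (siControl replicates 1 and 2, siMettl3 replicate 1). Of the 60 peaks with at least 1578 tags, 42 were in all 3 other lists and 4 (6.67%) in none, against 16.3% of all peaks of the list. The shares of such tag-rich peaks found in no other list were 8.08% in siControl replicate 1, 4% in siControl replicate 2 and 14.6% in siMettl3 replicate 1, where all peaks gave 9.83%, 9.97% and 12.7%. By length, 9 of the 93 peaks of at least 4161 bases (9.68%) were in no other list. Such long private peaks were 1 of 87 (1.15%) in siControl replicate 1 and 5 of 110 (4.55%) in siControl replicate 2. In siMettl3 replicate 1 they were 12 of 107 (11.2%). By its score, the NEAT1 peak was thus among few peaks that other lists lacked, and each list had some. What set it apart from the other 3 samples was not tested.

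**Figure D2:**
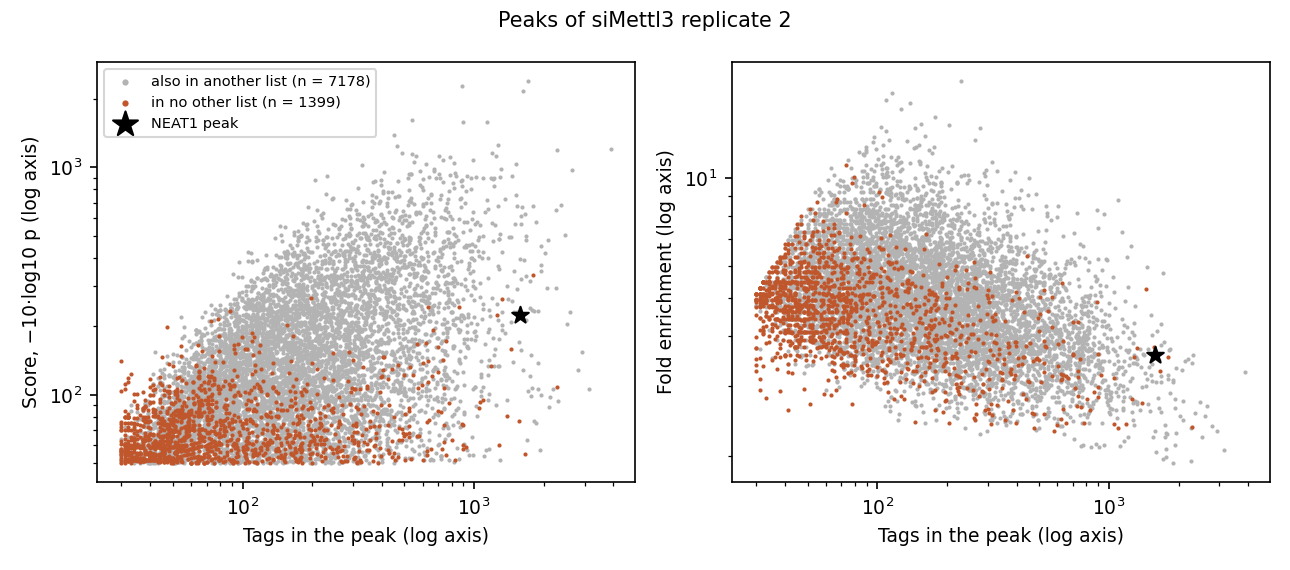
Score (left) and fold enrichment (right) of the 8577 peaks of siMettl3 replicate 2 against the tags in them, all axes logarithmic. Red points are the 1399 peaks found in no other list, grey points the peaks that overlap another list, and the star is the NEAT1 peak, which has 1578 tags, a score of 224.79 and a fold enrichment of 3.58 and lies above most red points in tags and score.

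MALAT1, a transcript known for strong m6A sites in other cells, had 0 peaks in both siControl lists and 0 in both siMettl3 lists. H19 likewise had 0 peaks in each of the 4 samples. The lists give no value for places under the calling threshold, so an absent peak sets no upper limit on the enrichment there, and m6A on MALAT1 and H19 was not detectable in these lists, which does not show that it was absent. For scale, the genome was cut into tiles as long as each RNA, up to the last peak of each chromosome. A peak in at least 1 sample was found in 7.31% of 134204 tiles of NEAT1's length, 3.51% of 350533 of MALAT1's length and 1.51% of 1147567 of H19's length. The tiles include sequence that is not transcribed, so 1 of 3 RNAs with a peak cannot be read as many or few against them. Peaks of all 4 lists met in 31.7% of the 12221 regions, and 0 of these common regions were on the 3 RNAs.

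Between the groups, the number of peaks on NEAT1 was 0.5 ± 0.71 in siMettl3 and 0 in both siControl samples (SD, n = 2 each). The difference of 0.5 was smaller than the SD of siMettl3. An exact permutation test, two-sided, gave p = 1.0. With a peak in 1 sample alone, each of the 6 relabellings gives the same absolute difference. This p was therefore fixed and tells nothing about the groups. With other values, the smallest possible p with 2 samples against 2 is 0.333. Bases of NEAT1 under a peak were 0, 0, 0 and 3772 in siControl replicates 1 and 2 and siMettl3 replicates 1 and 2. The exact two-sided permutation test on them gave p = 1.0, fixed in the same way. The NEAT1 peak held 0.0811% of all tags in peaks of its sample. The difference rests on siMettl3 replicate 2, since without it all values were 0. MALAT1 and H19 differed by 0 in each of these measures. Fold enrichment on NEAT1 could not be compared between the groups, because a single sample gives a value.

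The surroundings of the RNAs were not empty of peaks. Upstream of NEAT1, a region at chr11:65178331-65180891 had a peak in all 4 samples that ended 9.38 to 9.60 kb before the 5′ end of NEAT1. The listed FDR was 83.38% and 28.78% in siControl replicates 1 and 2 and 33.21% and 21.23% in siMettl3 replicates 1 and 2. The region was not assigned to a gene. Its fold enrichment was 2.74 and 3.59 in siControl and 3.37 and 3.79 in siMettl3, so the groups overlapped. The log2 difference was 0.19 (SE 0.19), with an adjusted p of 0.775 (limma, Benjamini-Hochberg over the 3875 regions with a peak in all 4 samples). It was −0.0065 without siControl replicate 1, 0.38 without siControl replicate 2 and 0.10 without siMettl3 replicate 2. Its scores did not overlap, with 91.78 and 205.32 in siControl and 282.78 and 346.66 in siMettl3. Scores of both siMettl3 samples stood above both siControl samples in 17.9% of the 3875 regions and below both in 25.3%.

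Beyond MALAT1, the nearest region shared by all 4 samples was at chr11:65348379-65351576, 74.4 kb past its 3′ end. Its fold enrichment was 2.74 and 3.21 in siControl and 3.68 and 3.78 in siMettl3. Both siMettl3 values were above both siControl values, an order seen in 20.6% of the 3875 regions. The log2 difference was 0.33 (SE 0.17, limma adjusted p = 0.573), and 0.22 without siControl replicate 1. Its scores were 144 and 250.47 in siControl and 479.68 and 405.53 in siMettl3. In the limma fit 0 of the 3875 regions passed an adjusted p of 0.05 (0%), and 372 had an unadjusted p under 0.05. Regions without a peak in all 4 samples were not in this fit, so it says nothing of peaks that only some samples listed. Between the last peak before MALAT1 and the first after it lay 168, 167, 160 and 149 kb in siControl replicates 1 and 2 and siMettl3 replicates 1 and 2. In each list this gap exceeded the median gap between neighboring peaks on chromosome 11 (56.25 to 108.6 kb), and 30.4% to 39.3% of the gaps were longer. These gaps include sequence that is not transcribed, so they are no measure for a transcribed locus.

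**Figure D3:**
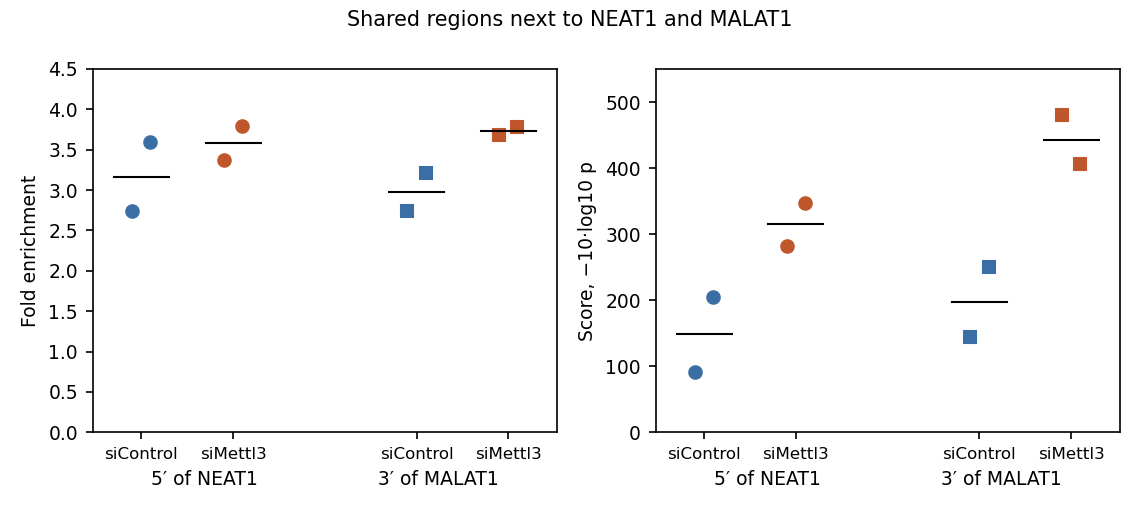
Fold enrichment (left) and score (right) of the shared regions before NEAT1 and after MALAT1. Points are single samples (siControl blue, siMettl3 red, replicate 1 left and replicate 2 right within a group) and lines the group means. Fold enrichment before NEAT1 overlaps between the groups, and the other values are higher in both siMettl3 samples than in both siControl samples.

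Around H19, the nearest peak was on its 3′ side at chr11:2003369-2007645, 8.761, 8.899 and 8.997 kb away in the 3 samples that had it. It was absent from the list of siControl replicate 1. Its fold enrichment was 3.27 in the remaining siControl sample and 3.35 and 4 in siMettl3 replicates 1 and 2, with scores of 79.2, 114.73 and 271.64. Regions 21.2 kb away on the 3′ side and 150 kb away on the 5′ side had a peak in both siMettl3 samples and in neither siControl sample, a pattern of 5.25% of all 12221 regions. Their scores were 61.63 and 154.51 on the 3′ side and 70.31 and 110.28 on the 5′ side in siMettl3 replicates 1 and 2, where the lists begin at 50. The nearest 5′ peak of each siControl list was 209 kb away, beyond the range drawn here, and overlapped a peak in 2 other lists. Regions with a peak in both siControl samples only were not counted. In siMettl3 replicate 1 a further peak lay 131 kb upstream of H19. It held 7726 tags, exceeded by 1 other peak of its list, and had the lowest fold enrichment in that list, 1.47. In GRCh38.p14 the next protein-coding locus on that side of H19 is IGF2, the reciprocally imprinted partner of H19, and the peak was not assigned to it.

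**Figure D4:**
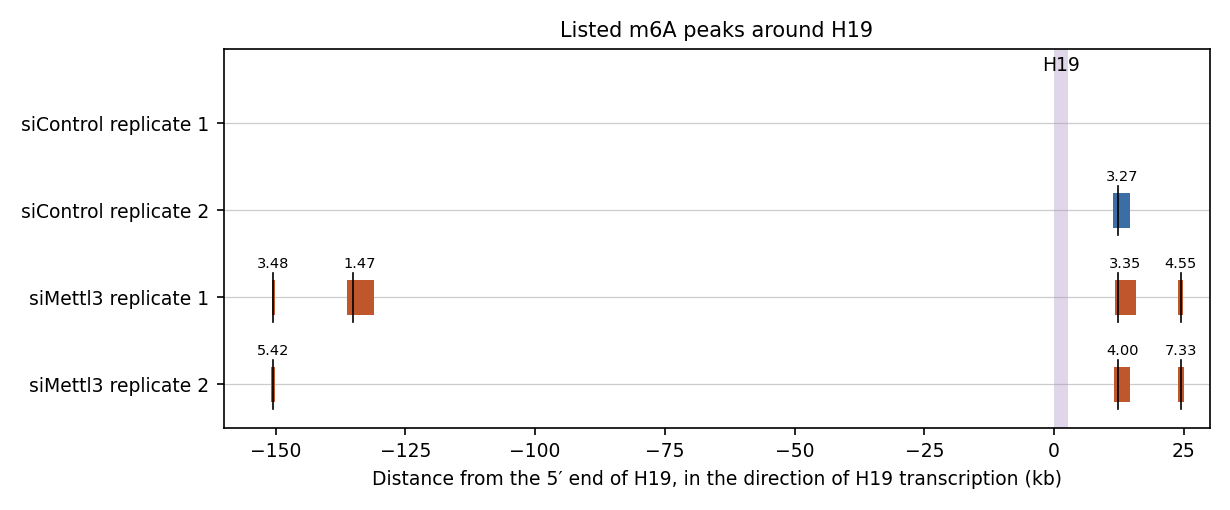
Listed m6A peaks around H19 in the 4 samples. The x axis is the distance in kb from the 5′ end of H19 in the direction of its transcription, boxes are peaks, black lines summits and numbers fold enrichment, with siControl in blue and siMettl3 in red. No box touches H19, siControl replicate 1 has none in this range, and the box nearest to H19 is shared by the other 3 samples.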

How the data were processed

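m6A-seq peak lists of the 4 immunoprecipitated samples (2 siControl, 2 siMettl3) were used, with groups from the sample titles. The 4 input samples enter only through the authors' calling. The submitters' processing notes name hg19, CASAVA 1.8.2 and MACS 1.4.2, and the aligner is not given in the sources used here. Per the file headers, the authors deposited for each peak its position, the tag count (not normalized), a score (Phred-scaled p-value), a fold enrichment as a linear ratio, and an FDR in percent. Each list was called on its own sample.

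Coordinates are 1-based, and a summit is the peak start plus its offset minus 1. Overlapping peaks were merged into regions. Regions in all 4 samples were compared on log2 fold enrichment with limma 3.58.1 (R 4.3.3, lmFit and eBayes). A run on simulated data with equal noise in every region required only that the mean estimate came out right. It does not measure the power for real regions. Single values per sample were compared with exact permutation tests over 6 relabellings. Because library depth is unknown, no counting interval is given. The 3 RNAs, named by rule, and all measures were chosen with earlier results of these data known, and the neighboring regions were chosen after the RNAs were found to hold no shared region. hg19 and GRCh38 chromosome ends were entered by hand. GRCh38.p14 tables gave only names, spans and sequences, and no sequence at the NEAT1 peak is shown because no hg19 genome was used here. Alternatives were stricter score or FDR, equal list lengths, summit or wider windows, 50% coverage of a region, other averaging, centring and eBayes settings, the replicate block and each replicate left out. Python 3.11.15, numpy 2.4.6, pandas 2.3.3 and matplotlib 3.10.9 were used.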

Additional observations from a re-analysis of the deposited data

How the results depend on the processing

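The 0 peaks on MALAT1 and on H19 and the single peak on NEAT1 were unchanged with a score of at least 70, an FDR of at most 50%, lists cut to the length of the shortest, the summit required inside the window and the window widened by 1 kb. These outcomes were fixed by the values above. Stricter or shorter lists only lose peaks, so 0 stays 0, and the NEAT1 peak passes each limit. No other peak lay within 1 kb of a window, the nearest being 8.76 kb from H19, 9.38 kb from NEAT1 and 66.7 kb from MALAT1. With a replicate left out, the difference on NEAT1 (siMettl3 minus siControl) ranged from 0 to 1 peaks, from 0 to 3772 bases and from 0 to 0.0811% of peak tags, 0 being the value without siMettl3 replicate 2. The difference between the group means in the share of peak tags on NEAT1 was 0.0648% under the FDR limit, against 0.0405%, because fewer tags remain in the total. With the replicate block the paired difference on NEAT1 was 0.5 peaks (0 in replicate 1, 1 in replicate 2), and the samples share only a number (the differences between replicates 1 and 2 correlated at 0.011 between the groups across 3875 regions, which are not independent). In limma 0 regions passed under each alternative that kept every sample. Counts at an unadjusted p under 0.05 ran from 146 of 1356 regions (FDR limit) to 497 of 3875 (replicate block). The smallest limma adjusted p was 0.0647 with the replicate block, against 0.373 in the main fit. In fits with a sample left out, a lone sample is assumed to vary like the other group. The log2 difference of the region before NEAT1 reversed to −0.0065 without siControl replicate 1 (the cause was not tested) and reached 0.38 without siControl replicate 2, its adjusted p ranging from 0.670 to 0.997 over 10 alternatives. The FDR limit removed that region, because its peak in siControl replicate 1 had a listed FDR of 83.38%. The region after MALAT1 stayed between 0.22 and 0.44 (adjusted p 0.476 to 0.989). Unknown library depth limits every statement on absent peaks.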
